A study of Mus musculus with 4 samples.

Results

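The Pcgf and polyhomeotic genes, with the CpG-binding partner gene Kdm2b, were examined in 4 mouse tumours. They are the genes whose products set apart canonical and variant forms of Polycomb repressive complex 1 (PRC1). The 10 genes were taken by symbol (Pcgf1, Pcgf2, Pcgf3, Bmi1, Pcgf5, Pcgf6, Phc1, Phc2, Phc3 and Kdm2b) from a table of 46946 genes, and each matched a single identifier. The tumours form 1 group. They are labelled as untreated mouse tumours that grew from neural stem cells with PDGF (PDGFB in the sample titles), of genotype K27M, which replaces lysine 27 of histone H3. All 4 share both alterations, and the labels name no promoter, strain or age. The text for the series speaks instead of injected DIPG (diffuse intrinsic pontine glioma) cells with mutant H3.3, and the tables do not settle which holds. The 4 libraries, T14, T10, T8 and TUN, held 21664889 to 24369339 counts. No comparison between conditions is possible, so the values below describe how the subunit genes stand to each other inside each tumour and how they vary from tumour to tumour. Where 4 values follow each other, they stand in the order T14, T10, T8, TUN.

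PRC1 places ubiquitin on histone H2A through a Ring subunit, Ring1 or Rnf2, which pairs with 1 of 6 Pcgf proteins, and the Pcgf protein decides which other subunits join. With Pcgf2 or Bmi1 the complex can take up a Cbx protein that reads the H3K27 methyl mark of PRC2 and a polyhomeotic (Phc) protein that forms polymers through its SAM domain and helps to compact chromatin; this is canonical PRC1. Pcgf1, Pcgf3, Pcgf5 and Pcgf6 enter variant complexes, which hold Rybp or Yaf2 in place of Cbx and Phc and do not need the H3K27 methyl mark for recruitment. Kdm2b brings the Pcgf1 complex to unmethylated CpG dinucleotides through a CxxC zinc finger. Bmi1 is known in the nervous system for the self-renewal of neural stem cells.

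The promoters of Bmi1, Pcgf2, Pcgf3 and Phc1 are shown because these 4 genes kept nearly fixed ratios across the tumours, as described further on. Each is the RefSeq window on GRCm38.p6 from 250 bases before to 50 after the start, 5′ to 3′ on the gene's strand, with each CpG, the dinucleotide that Kdm2b binds, in capitals. The windows are chr2:18676768-18677067 (plus strand), chr11:97699599-97699898 (minus), chr5:108461009-108461308 (plus) and chr6:122340178-122340477 (minus).
Bmi1: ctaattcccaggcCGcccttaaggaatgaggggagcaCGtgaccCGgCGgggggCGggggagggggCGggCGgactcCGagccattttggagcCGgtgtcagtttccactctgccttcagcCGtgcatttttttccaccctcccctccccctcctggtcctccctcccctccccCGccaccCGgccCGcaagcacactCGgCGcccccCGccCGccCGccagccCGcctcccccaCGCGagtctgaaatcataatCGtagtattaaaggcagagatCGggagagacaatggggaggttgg
Pcgf2: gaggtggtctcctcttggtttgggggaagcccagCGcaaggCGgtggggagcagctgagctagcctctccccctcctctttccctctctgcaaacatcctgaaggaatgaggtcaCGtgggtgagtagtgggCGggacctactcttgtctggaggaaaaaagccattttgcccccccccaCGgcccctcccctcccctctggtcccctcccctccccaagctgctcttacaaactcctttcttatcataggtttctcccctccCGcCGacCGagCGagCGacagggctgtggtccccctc
Pcgf3: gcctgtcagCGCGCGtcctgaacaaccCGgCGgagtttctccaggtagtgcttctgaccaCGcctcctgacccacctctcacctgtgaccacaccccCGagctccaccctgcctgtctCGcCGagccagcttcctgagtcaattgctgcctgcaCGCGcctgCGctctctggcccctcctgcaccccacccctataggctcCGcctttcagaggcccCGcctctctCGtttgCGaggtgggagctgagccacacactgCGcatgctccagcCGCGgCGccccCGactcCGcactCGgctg
Phc1: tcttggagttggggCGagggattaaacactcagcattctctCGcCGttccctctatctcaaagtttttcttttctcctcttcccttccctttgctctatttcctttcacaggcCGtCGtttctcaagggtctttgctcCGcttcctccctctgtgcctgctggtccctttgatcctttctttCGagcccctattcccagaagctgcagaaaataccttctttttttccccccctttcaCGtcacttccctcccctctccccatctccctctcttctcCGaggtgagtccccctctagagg

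Bmi1 and Pcgf3 had 23 CpG each in these 300 bases, Pcgf2 had 10 and Phc1 had 9, against a median of 7 over all 32851 RefSeq windows. Windows were found for 9 of the 10 genes, all but Pcgf1. Pcgf5, Phc2 and Kdm2b have several starts, and the widest contrast was within Phc2, with 2 CpG at the middle start and 45 at the last. The E-box CACGTG, which Max dimers bind, was present in 1 copy in the windows of Bmi1 and Pcgf2 and was absent from those of Pcgf3 and Phc1. It was found in 4 of the 16 windows of the 9 genes (also Phc3 and the first start of Phc2) and in 7.15% of all windows; some windows of a gene overlap each other. The E2F-type motif TTTNNCGC, searched on both strands, was in none of the members' windows and in 5.17% of all. In all, 11 motifs were searched on both strands with expression values known. The longer E-box TCACGTGA, which contains CACGTG, was in 1 of the 16 (0.974% of all windows), and TTTNGCGC, a narrower form of the E2F-type motif, in 0 (1.38%). GGGCGG was in 11 (35.7%), CCAAT in 5 (37.4%), CGCGAA in 1 (4.09%), GGCGGGAA in 1 (2.19%), the palindromic NRF1 motif in 1 (0.971%), CCGGAAGT in 0 (3.89%) and TGACGTCA in 0 (1.79%). These are matches of letters and not measured binding sites.

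All 10 genes were expressed in every tumour, at 1 or more CPM (counts relative to library size, scaled by TMM) in all 4 libraries, which 28.2% of all genes in the table reached. Levels between genes are given as RPKM, which also divides by the merged exon length of the gene. Bmi1 (chromosome 2, 18677018 to 18686629 in mm10) was the highest by merged exon length, at 25.4, 34.6, 37.2 and 33.1 RPKM (mean 32.6 ± 5.06, SD, n = 4). It stood above 87.4% of the 14266 genes that passed the low-count filter. Phc2 (28.8 ± 7.76 RPKM) overlapped with Bmi1 in range and was lower in 3 of 4 tumours. Phc1 (15.3 ± 1.55 RPKM) followed, below Phc2 and above Pcgf5 in every tumour. Pcgf5, Pcgf3 and Pcgf2 formed a middle group at 9.40 ± 2.02, 9.16 ± 1.45 and 8.57 ± 1.13 RPKM. Their ranges overlap, although by merged exon length Pcgf3 exceeded Pcgf2 in 4 of 4 tumours by 0.09 ± 0.04 log2 units. Phc3 (6.11 ± 1.14 RPKM), Pcgf6 (5.77 ± 1.17 RPKM) and Kdm2b (4.75 ± 0.614 RPKM) also overlapped with their neighbours. Pcgf1 was the lowest, at 3.22 ± 0.588 RPKM, above 28.6% of the genes tested, with a range below that of Kdm2b.

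**Figure D1:**
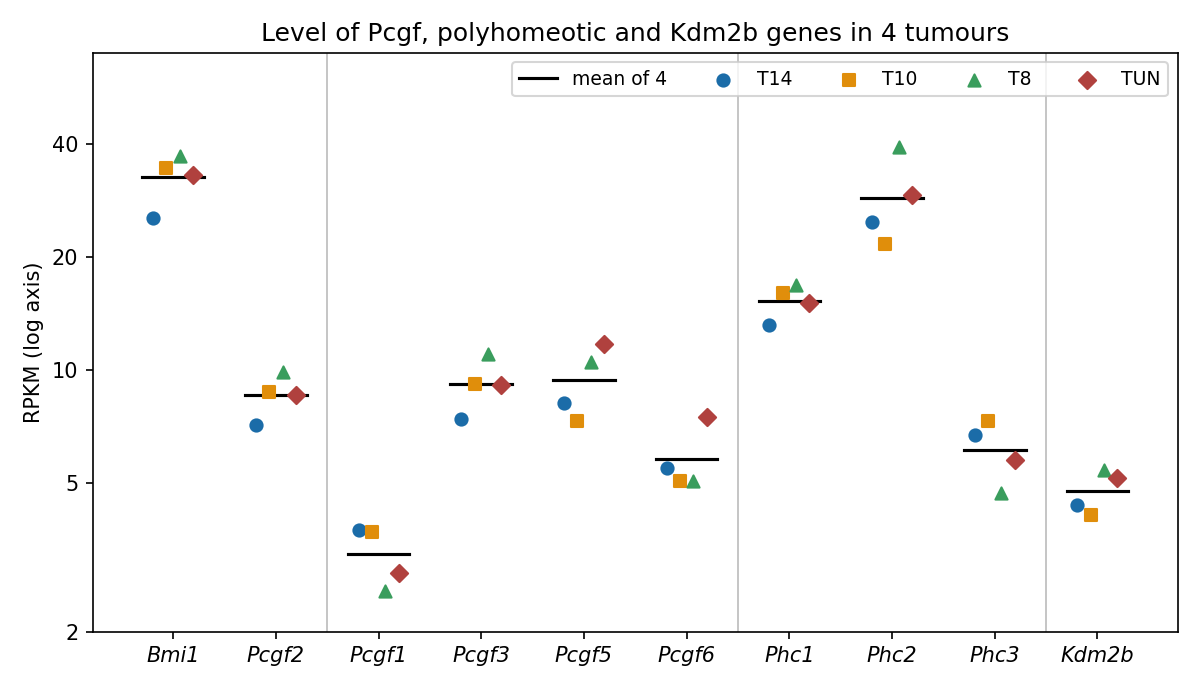
RPKM (log axis) of the 10 genes in the 4 tumours, 1 symbol per tumour, with the mean as a line; vertical lines part canonical Pcgf, variant Pcgf, polyhomeotic and Kdm2b genes. Bmi1 and Phc2 lie highest at means of 32.6 and 28.8 RPKM, and Pcgf1 lowest at 3.22.

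This order rests partly on the length used. Merged exons ran from 1649 bases for Pcgf1 to 17485 for Phc3, and principal transcripts of the later GENCODE vM21 annotation are shorter for most members. With the longest principal transcript as length, Bmi1 and Phc2 remained the highest pair, but Phc2 (51.5 RPKM) stood above Bmi1 (36 RPKM), as it did with the shortest (52.3 against 47.1 RPKM) and in CPM (203 against 129). With the longest, Kdm2b moved to 9.97 RPKM and Pcgf6, at 5.77, became the lowest beside Pcgf1 at 5.78. Pcgf2 then stood above Pcgf3, at 12.2 against 11.3 RPKM. With the shortest it stood at 21.0 against 11.3 RPKM, near Phc1 at 21.1. Phc3 was most affected, since its principal transcripts measure 3019 or 10976 bases: it stood at 9.73 RPKM with the longer and 35.4 with the shorter. For Pcgf5 the exons counted cover 1659 bases, whereas vM21 lists a principal transcript of 6443 bases, so reads from the remainder are not in its count. Counts do not separate isoforms, which matters for Kdm2b, with 20 annotated transcripts in vM21. Of its exon bases 8.74% overlap other genes (Rnf34, A930024E05Rik and Gm44574), and without strand information reads there cannot be told apart. No exon of the other 9 genes overlapped another gene of the table.

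Of the canonical Pcgf paralogs, Bmi1 exceeded Pcgf2 (also called Mel18; chromosome 11, 97688823 to 97700497) by almost the same factor in each tumour. By merged exon length the log2 ratio was 1.82, 1.98, 1.90 and 1.94, a mean of 1.91 ± 0.07 (SD, n = 4) or 3.76-fold. The mean was 1.55 with the longest principal transcripts, 1.16 with the shortest and 2.09 in CPM. Pcgf2 itself stood at 25.2, 30.7, 34.9 and 30.1 CPM, and Bmi1 at 101, 138, 148 and 132 CPM. Both were thus lowest in T14 and highest in T8. Together they took 56.8% of the summed RPKM of the 6 Pcgf genes in T14, then 63.2%, 61.8% and 57.2%, a mean of 59.8 ± 3.25%. Bmi1 alone took 47.3 ± 2.87%. The log2 ratio of canonical to variant Pcgf genes was 0.57 ± 0.20 and above 0 in 4 of 4 tumours (exact sign-flip p = 0.125, the smallest that 4 tumours allow). It rose to 1.03 with the shortest principal transcripts and was 0.40 in CPM without length. RNA levels do not give the amounts of the complexes.

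**Figure D2:**
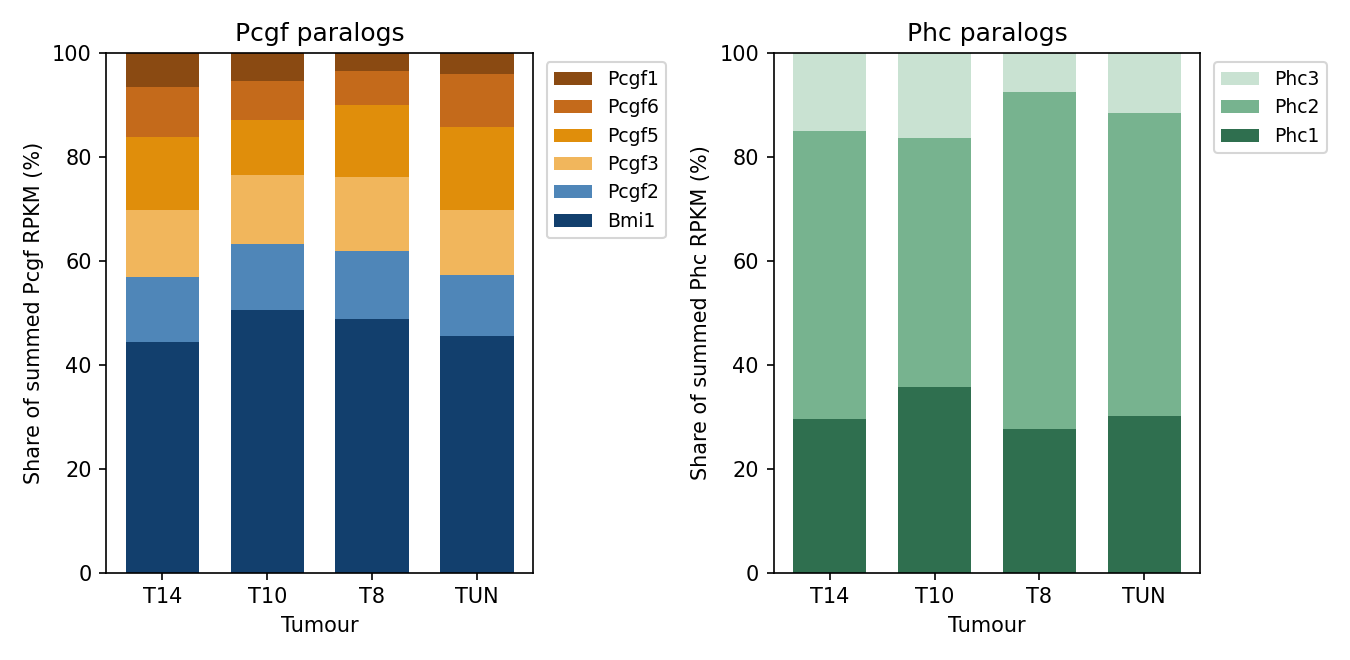
Share of each paralog in the summed RPKM of the 6 Pcgf genes (left; blue canonical, orange variant) and of the 3 Phc genes (right), 1 bar per tumour. Canonical Pcgf genes take 56.8% to 63.2% in all 4 tumours, and Phc2 takes 48% to 64.8% of the Phc sum.

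The variant Pcgf genes were less alike. Pcgf3 lies on chromosome 5 (108461232 to 108506976), and Pcgf5 (36379067 to 36456192) and Pcgf6 (47033619 to 47050845) both lie on chromosome 19. Pcgf3 and Pcgf5, whose complexes also hold casein kinase 2 and Auts2, took 13.3 ± 0.81% and 13.7 ± 2.23% of the Pcgf sum. Their log2 ratio was -0.14, 0.32, 0.07 and -0.35, so neither was steadily the higher (mean -0.03 ± 0.29, exact sign-flip p = 0.875). By reads alone Pcgf3 exceeded Pcgf5 by 2.49 log2 units, with merged exons of 9544 against 1659 bases. Pcgf5 stood at 13.6, 12.1, 17.4 and 19.4 CPM, with T8 and TUN above the other two. Pcgf6, the subunit of the complex with Mga, Max and E2f6, took 8.46 ± 1.74%. It stood at 11.5, 10.6, 10.6 and 15.7 CPM. The counting interval in TUN (exact Poisson 95%, 14.1 to 17.5 CPM) lay above those of the other libraries, of which the highest bound was 13 CPM in T14; these intervals cover counting error only.

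Pcgf1 (chromosome 6, 83077869 to 83080855), which forms the complex with Kdm2b and Bcor, took the smallest share, 4.81 ± 1.42% (6.51%, 5.4%, 3.38% and 3.95%). It rested on 139, 150, 101 and 106 counts. Its level was 6.16, 6.10, 4.24 and 4.74 CPM, so T8 and TUN were the lower pair. The counting intervals of T14 (5.17 to 7.27 CPM) and TUN (3.88 to 5.73 CPM) overlap, and that of T8 (3.45 to 5.15 CPM) ends just below the one of T14. By merged exon length Bmi1 exceeded Pcgf1 9.87-fold (log2 ratio of Pcgf1 to Bmi1 -3.3 ± 0.45, below 0 in 4 of 4 tumours). The mean log2 ratio was -2.62 with the longest principal transcripts, -3.01 with the shortest and -4.59 in CPM. Pcgf1 stood below Pcgf6 by 0.82 ± 0.42 log2 units in 4 of 4 tumours, but with principal transcript lengths this difference vanished (0.01, above 0 in 2 of 4).

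Kdm2b (chromosome 5, 122870665 to 122989823) stood at 47.5, 44.6, 58.5 and 55.9 CPM, a narrow range with T8 and TUN highest. Per length it exceeded Pcgf1 by 0.22, 0.14, 1.04 and 0.82 log2 units (mean 0.56 ± 0.44). Pcgf1 was highest in T14 and T10, the libraries in which Kdm2b was lowest. Kdm2a, the paralog with the same CxxC and demethylase domains that does not belong to PRC1, exceeded Kdm2b in 4 of 4 tumours (log2 ratio of Kdm2b to Kdm2a -0.88 ± 0.29), with 8.79 ± 0.704 against 4.75 ± 0.614 RPKM. The other subunits of the Pcgf1 complex stood at 144 ± 7.55 RPKM (Skp1a, an adaptor shared with ubiquitin ligases), 22.7 ± 0.927 (Usp7, a deubiquitinase), 5.53 ± 0.741 (Bcor) and 2.42 ± 0.413 (Bcorl1).

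Among the polyhomeotic genes Phc2 (chromosome 4, 128654702 to 128752881) was the highest and the most variable. It stood at 175, 152, 278 and 207 CPM, a 1.83-fold range. Phc3 (chromosome 3, 30899371 to 30969415) stood at 117, 128, 81.8 and 101 CPM. The order of the libraries for Phc3 was the reverse of that for Phc2, and the CPM ratio of Phc2 to Phc3 went from 1.19 in T10 and 1.5 in T14 to 2.06 in TUN and 3.4 in T8. Phc1 (chromosome 6, 122317731 to 122340561), known for expression in embryonic stem cells, was the steadiest member, at 69.9, 85, 88.8 and 80 CPM. Of the summed Phc RPKM, Phc2 took 56.7 ± 6.93%, Phc1 30.7 ± 3.5% and Phc3 12.6 ± 3.84%. Phc1 lay below Phc2 in 4 of 4 tumours (log2 ratio -0.88 ± 0.33) under each length tried. Its position against Phc3 depends on length: 1.32 ± 0.37 by merged exons (positive in 4 of 4), -0.38 in CPM and -0.73 with the shortest principal transcripts.

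Across the 11 pairs of genes compared, 10 had the same sign in all 4 tumours by merged exon length. No share over other pairs of genes was computed. With 4 tumours the exact sign-flip test cannot call any pair (p = 0.125 for each of these 10, adjusted p = 0.138 over the pairs). Per length, the widest of the 11 contrasts was between the subunits Yaf2 and Rybp. Yaf2 exceeded Rybp 16.3-fold per length (log2 ratio of Rybp to Yaf2 -4.03 ± 0.16), at 49.5 ± 3.65 against 2.94 ± 0.228 RPKM; these proteins occupy the same place in variant complexes. In CPM without length the log2 ratio was -2.73. Rnf2, also called Ring1b, exceeded Ring1 by 1.68 ± 0.28 log2 units in 4 of 4 tumours, at 21.2 ± 4.62 against 6.45 ± 0.655 RPKM.

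**Figure D3:**
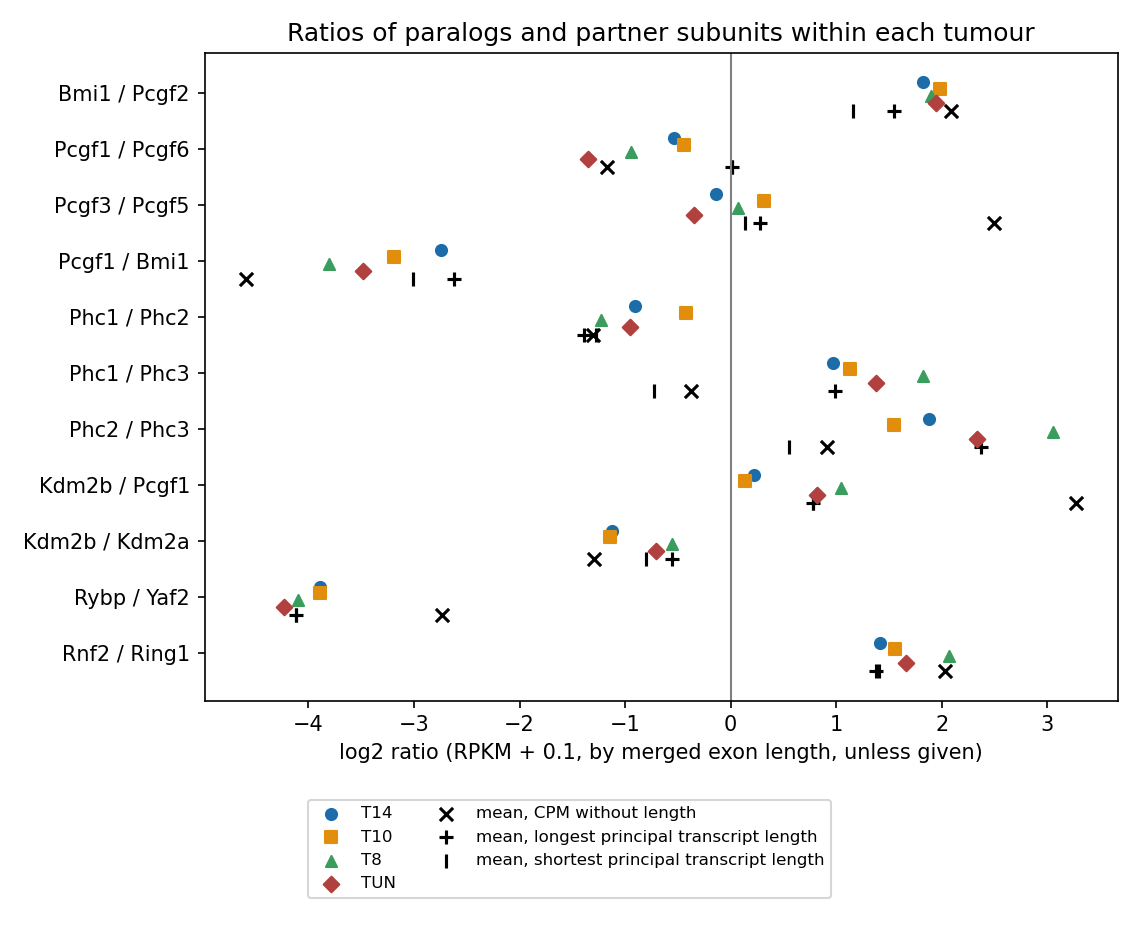
Log2 ratio within each tumour for the 11 pairs (coloured symbols, RPKM + 0.1 by merged exon length), with the 4-tumour mean under other lengths in black. Rybp lies furthest below its partner (mean -4.03), and the ratios of Pcgf1 to Pcgf6, Pcgf3 to Pcgf5 and Phc1 to Phc3 change side with the length used.

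Between tumours none of the 10 genes passed a test for more variation than genes of like abundance show. In edgeR's goodness of fit, 619 of 14266 genes (4.34%) had an adjusted p under 0.05, and 0 of the 10 did. None had an unadjusted p under 0.05 either (the smallest was 0.561, for Phc2), against 1196 of the 14266 genes. Dispersion outliers in DESeq2 were 78 of all genes tested and 0 of the 10. With shares this small over all genes, 0 of 10 genes says little. No member spanned 2-fold between its highest and lowest tumour, which 29.1% of all genes tested exceeded. The fold from lowest to highest ran from 1.27 for Phc1 to 1.83 for Phc2, with a median of 1.47 against 1.57 over all genes tested. The SD of log2 CPM had a median of 0.25 against 0.30, and lay below that of Phc1 (0.15) in 18.4% of genes and below that of Phc2 (0.37) in 62.5%. The biological coefficient of variation over all genes was 37.6%, and a p that misses the threshold in 4 libraries does not show that levels were equal.

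**Figure D4:**
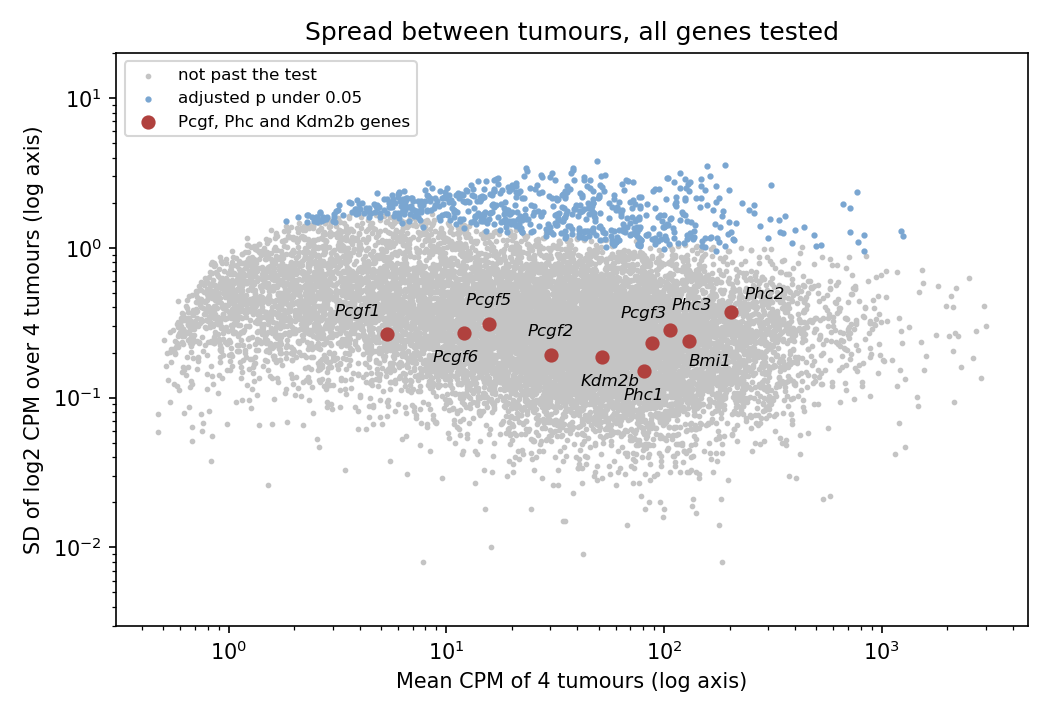
SD of log2 CPM over the 4 tumours against mean CPM for 14266 genes (both axes log), with genes past the edgeR goodness of fit in blue and the 10 members in red. The members lie between 0.15 and 0.37, within the bulk of genes and below all called genes of like abundance.

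Within this spread 3 patterns were seen. Bmi1, Pcgf2, Pcgf3 and Phc1 were lowest in T14 and highest in T8, with T10 and TUN between them. The SD of the log2 ratio to Bmi1 was 0.068 for Pcgf2, 0.073 for Pcgf3 and 0.093 for Phc1, against a median of 0.368 over the other 14265 genes tested. Of these, 67 genes (0.47%) kept a ratio to Bmi1 steadier than Pcgf2, 78 (0.547%) steadier than Pcgf3 and 157 (1.1%) steadier than Phc1. Counting error alone would give an SD of about 0.061 for Pcgf2, 0.042 for Pcgf3 and 0.043 for Phc1. The SDs seen for Pcgf3 and Phc1 lay above these values. An SD from 4 values is itself uncertain, and whether it exceeded counting error was not tested. The ratio of Pcgf2 to Pcgf3 was 0.356, 0.352, 0.333 and 0.346 in CPM in T14, T10, T8 and TUN. The variant subunit gene Pcgf3 thus kept nearly the same ratio to the canonical Pcgf genes. Phc2, a canonical subunit gene, was lowest in T10. Its ratio to Bmi1 had an SD of 0.337, near the median, and 44.1% of the other genes tested kept a steadier one. These 4 genes were picked out after their values were seen, and the values come from 4 libraries. T10 and T8 were the 2 highest libraries in 8.63% of all genes tested, against 4 of the 10 members. For each of these 4 members the counting intervals (Poisson 95%) of T10 and TUN overlap, as in Pcgf3 (83.7 to 91.1 against 83.3 to 91.1 CPM). The counts thus do not settle whether T10 or TUN was the second highest. T8 with TUN was the highest pair in 32.9% of all genes tested.

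The second pattern joined Pcgf1 and Phc3, higher in T14 and T10 than in T8 and TUN, as were 32.7% of all genes tested. Their CPM ratio was 0.0526, 0.0478, 0.0518 and 0.0471 (SD of the log2 ratio 0.081, less than the 0.135 that counting error gives). This pair too was picked out after its values were seen, and no share over all genes was computed for it. The third was the converse: Phc2, Pcgf5 and Kdm2b had T8 and TUN as the 2 highest libraries, as did 32.9% of all genes. Pcgf6 fell outside all 3, with TUN and T14 highest (10% of all genes). No member had T14 with T8 (7.36% of all genes) or T10 with TUN (8.38%) as its highest pair.

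T14 and T10 were also the 2 highest libraries for 8 of 8 neuron markers, 7 of 8 astrocyte markers (not Slc1a3) and 6 of 7 markers of mature oligodendrocytes (not Cldn11, which was lowest in T14). Neuron markers summed to 3218, 2550, 300 and 153 CPM, and all 8, Snap25 and Rbfox3 among them, passed the goodness of fit. The 8 astrocyte markers (Gfap, Aqp4 and others) summed to 7043, 4502, 2199 and 2107 CPM (5 past), and 7 markers of mature oligodendrocytes (Mbp and others) to 2954, 3843, 1057 and 928 CPM (5 past). Mitosis genes (Top2a, Mki67 and others) ran the other way, at 704, 716, 1282 and 1685 CPM (0 of 8 past). Markers of oligodendrocyte precursors, led by Pdgfra and Cspg4 in the list, summed to 9229, 10724, 15030 and 12131 CPM, and all 8 were highest in T8 (0 past). In mean deviation from the 4-tumour mean these precursor markers stood at -0.33, -0.15, 0.41 and 0.07 log2 units. Bmi1 stood at -0.34, 0.10, 0.20 and 0.04, and Pcgf2 at -0.25, 0.03, 0.22 and 0.01. Phc2 stood at -0.17, -0.38, 0.49 and 0.06, Pcgf5 at -0.18, -0.34, 0.18 and 0.33, and Kdm2b at -0.11, -0.20, 0.19 and 0.12. Mitosis genes stood at -0.53, -0.65, 0.39 and 0.78. For 7 of the 8 precursor markers and 8 of 8 mitosis genes T8 and TUN were the 2 highest libraries. The same held for Phc2, Pcgf5 and Kdm2b and for 32.9% of all genes tested. For 1 precursor marker they were T10 and T8, as for Bmi1, Pcgf2, Pcgf3 and Phc1. Pcgf1 and Phc3 had T14 and T10 as the highest pair, and Pcgf6 had T14 and TUN. Microglia markers (C1qa, C1qb and others; 481 to 678 CPM) and endothelial markers (Pecam1, Cdh5 and others; 263 to 309 CPM) had median fold ranges of 1.69 and 1.56, against 1.57 over all genes tested. P2ry12 (2.51-fold) and Tek (2.99-fold) among them were highest in T14 and T10, and C1qb (2.09-fold) in TUN and T8. Each marker was detected in all 4 libraries. In bulk tissue, fewer cells of a type and less RNA per cell cannot be told apart, and the part of cell mixture in the levels of the Pcgf and Phc genes was not tested.

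**Figure D5:**
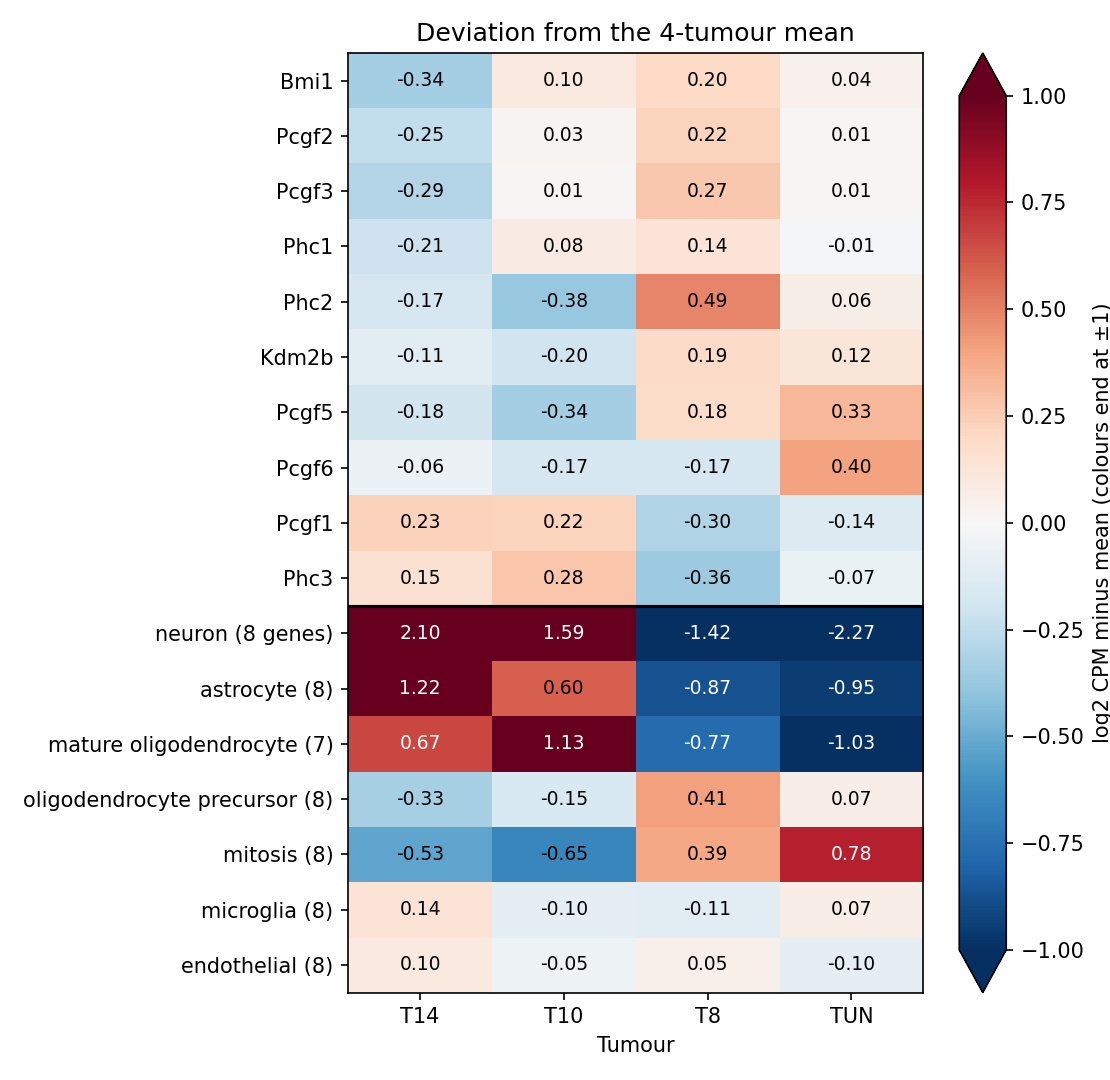
Log2 CPM minus the 4-tumour mean in each tumour for the 10 genes (top) and the average over 8 markers of each cell type, 7 for mature oligodendrocytes (bottom), with colours ending at ±1. Members stay between -0.38 and 0.49, whereas neuron markers run from 2.10 in T14 to -2.27 in TUN.

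The other 29 PRC1 subunit genes were all detected in all 4 tumours, and 1 of them, Cbx7, passed the goodness of fit in edgeR (adjusted p = 0.0365; 4.34% of all genes). This call was lost with no filter other than 1 count and with any 1 of the 4 tumours left out, and Cbx7 was no dispersion outlier in DESeq2. Cbx7, a reader of the H3K27 methyl mark, stood at 45.2, 28, 7.01 and 9.03 CPM, a 6.45-fold range that no Pcgf or Phc gene approached. It was highest in T14, where the summed neuron markers and the summed astrocyte markers were also highest. In deviation from the 4-tumour mean Cbx7 stood at 1.42, 0.73, -1.25 and -0.89 log2 units. The mean was 1.22, 0.60, -0.87 and -0.95 for astrocyte markers and 2.10, 1.59, -1.42 and -2.27 for neuron markers. The part of these cell types in the level of Cbx7 was not tested. Of the 7 Cbx and Scm genes of canonical PRC1, Cbx6 was the most abundant per length (36.3 ± 10.5 RPKM) and Scml2 the least (1.12 ± 0.432 RPKM). Of the 5 partners of Pcgf3 and Pcgf5, Csnk2b, the regulatory subunit of casein kinase 2, stood highest by merged exon length (58.0 ± 8.71 RPKM) and Auts2 lowest (1.91 ± 0.409 RPKM, over 22890 bases). Principal transcripts gave the same ends, whereas in CPM Csnk2a1 (136) was highest and Csnk2a2 (35.8) lowest. Of the 9 partners of Pcgf6, Tfdp1, the dimer partner of E2F factors, stood highest by merged exon length (54.2 ± 17.6 RPKM) and Cbx3 lowest (5.05 ± 1.56 RPKM). Both ranks turn with length: Hdac2 was highest in CPM (196) and by principal transcripts (97.7 RPKM), and the lowest was Hdac1 in CPM (19.6) and Mga by principal transcripts (6.63 RPKM). The level of Cbx3 is uncertain, because it has processed pseudogenes and the handling of multiply matched reads is not known. T8 and TUN were the 2 highest libraries for 5 of these 9 (Tfdp1, Wdr5, Hdac1, Hdac2 and Cbx3), beside 32.9% of all genes, and not for Pcgf6 itself. E2f6 was steady, with a range of 1.12-fold. Partners of the complexes had a median fold range of 1.41, near that of the members (1.47) and of all genes tested (1.57).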

How the data were processed

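TruSeq libraries of polyA RNA from 4 tumours were sequenced on a HiSeq2500, per the labels. The authors deposited whole-number read counts per gene with merged exon lengths. STAR, featureCounts and mm10 are named in the submitters' processing notes, and the table names GENCODE vM8. For tool versions, strand and multiply matched reads, the setting was not given in the sources used here. The column names match no sample title, so each column stands for an unnumbered tumour of the group, and 0 columns were left aside. Nothing says whether the tumours came from separate animals, so p-values measure only the spread between these samples.

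Symbols matched 46451 of 46946 genes. Counts were scaled in edgeR 4.0.16 (R 4.3.3) by TMM factors of 0.974 to 1.03 into CPM and RPKM. Variability was tested on the residual deviance of an edgeR fit with only an intercept, at trended dispersion (low-count filter of edgeR, chi-square with 3 degrees of freedom, Benjamini-Hochberg over 14266 genes), a step tested on simulated data. Ratios are of RPKM + 0.1 within a library, with a two-sided exact sign-flip test. Principal transcript lengths from vM21 were capped at the counted exon length where that is shorter. DESeq2 1.42.0 gave size factors and dispersion outliers. The members, lists, pairs, motifs and the rule for named genes (all members, the other gene of each pair, and the highest, lowest and called gene of each partner list, and the first genes of each marker list) were chosen with earlier results of these data known. Further partners and markers were named after their values were seen: Usp7, Bcor, E2f6, Wdr5, Hdac1, Hdac2, Mga, Csnk2a1, Csnk2a2, Slc1a3, Cldn11, P2ry12, Tek and C1qb. The list of mature oligodendrocyte markers was reduced by 1 gene, which is not reported here, after its values were seen.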

Additional observations from a re-analysis of the deposited data

How the results depend on the processing

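With DESeq2 size factors or library totals alone, no ratio changed direction. No mean level of a member then moved by as much as its SD between tumours (Bmi1 went from 129 to 130 CPM with each). The length of exons not shared with another gene turned no ratio either. With it Kdm2b to Pcgf1 moved from 0.56 to 0.68 log2 units, Kdm2b to Kdm2a from -0.88 to -0.75 and Rnf2 to Ring1 from 1.68 to 1.73. For the ratios little change was possible. Library scaling cancels within a library apart from the pseudocount, and of the paired genes only Kdm2b and Rnf2 share exon bases. The genes called variable were 618 with DESeq2 size factors and 611 with library totals alone. No ratio changed direction with pseudocount 1. In CPM without length the ratio of Pcgf3 to Pcgf5 turned to 2.49 log2 units and that of Phc1 to Phc3 to -0.38. Principal transcript lengths, added after seeing the data, turned Pcgf1 to Pcgf6 to 0.01 (longest and shortest), Pcgf3 to Pcgf5 to 0.28 (longest) and 0.14 (shortest), and Phc1 to Phc3 to -0.73 (shortest); these turns follow from the lengths themselves. Leaving out each tumour in turn moved Pcgf3 to Pcgf5, which lies near 0, to between -0.14 and 0.08, with the sign turned without T14 (0.01) and without TUN (0.08), and reversed no other ratio. The genes called variable were 619 by edgeR, 713 with no filter other than 1 count, 426 to 462 with each tumour left out and 78 as dispersion outliers in DESeq2; the cause of the last difference was not tested. The members called were 0 under each of these. Cbx7 was called with TMM, DESeq2 size factors and library totals, and in none of the others. No paired analysis was possible because there is 1 group. Of 22 levels and ratios tested with Dixon's ratio, 0 had a library far from the others; Pcgf6 in TUN came closest (0.827, just under the critical value). Depth limits Pcgf1 most, at 101 to 150 counts per library.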
